A study of Lytechinus variegatus with 9 samples.

Results

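The genes described here build and serve the oxidative phosphorylation system of the mitochondrion in embryos of the sea urchin Lytechinus variegatus. They were chosen by where they are encoded and by their annotation: every gene of the mitochondrial DNA (mtDNA), and every nuclear gene annotated as a NADH dehydrogenase [ubiquinone], succinate dehydrogenase, cytochrome b-c1, cytochrome c oxidase, ATP synthase subunit or cytochrome c-like gene. The 113 genes with at least 30 counts over all libraries were kept, of 26814 genes in the count table, and 10 candidates had fewer. They comprise 28 mtDNA genes (13 protein-coding, 2 rRNA and 13 of 22 tRNA genes) and 85 nuclear genes (66 subunits, 16 assembly factors and 3 others). The 10 candidates left out were 9 mtDNA tRNA genes and the cytochrome c-like gene LOC121426494, which had 15 counts. Just outside the minimum lay tRNA-Asp with 21 counts and tRNA-Ile with 20, and just inside it tRNA-Glu with 31 and tRNA-Lys with 64.

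The libraries came from whole wild-type embryos, raised in artificial seawater at 21 °C until the triradiate spicule rudiments had formed, about 18-20 hours post-fertilization. The carrier DMSO, 1 µM K02288 (an inhibitor of type I BMP receptors) or 75 nM axitinib (an inhibitor of VEGF receptors) was then added, and embryos were collected as late plutei at 2 days post-fertilization. Each treatment had 3 libraries, and libraries with the same replicate number were taken as embryos of the same mating, so that the 9 libraries form 3 matings with all 3 treatments each. RNA was selected by its poly-A tail, and libraries held 9359212 to 11815263 counts (median 10921655). Both inhibitors were compared with the same 3 DMSO libraries, so those comparisons are not independent of each other.

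Oxidative phosphorylation couples the transfer of electrons from NADH and succinate to oxygen with the synthesis of ATP. Complexes I (NADH dehydrogenase), III (cytochrome b-c1) and IV (cytochrome c oxidase) pump protons across the inner mitochondrial membrane, complex II (succinate dehydrogenase) and the soluble carrier cytochrome c pass electrons on, and complex V (ATP synthase) uses the proton gradient. All these complexes except complex II are built from products of both genomes, so the subunits of a single complex come from mRNAs made in the mitochondrion and in the nucleus. The roles given below are those known from mammals and yeast.

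Embryos carried far more mRNA per gene from the mtDNA than from nuclear genes of the same complexes. Levels between genes were compared per transcript length, as FPKM (fragments scaled by transcript length and library size), averaged over the 9 libraries. COX1, the catalytic subunit of complex IV, had 8911 FPKM and ranked 1st of all genes. The 13 mtDNA protein-coding genes had a median of 1513 FPKM, the 66 nuclear subunits 74.3, the 16 assembly factors 7.79 and all 18271 genes with 30 or more counts 4.13.

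Within the mtDNA, levels also differed widely. ATP6, a membrane subunit of ATP synthase, had 4584 FPKM, COX2 and COX3, the other core subunits of complex IV, 4417 and 4363, and CYTB, the core membrane subunit of complex III, 3243. The 7 mtDNA subunits of complex I ran lower, from 635 FPKM for ND6 to 1554 for ND4L. ATP8, the second mtDNA subunit of ATP synthase, was the lowest of the 13 with 196 FPKM. Its annotation is only 162 bases long, adjoins that of tRNA-Lys and overlaps that of ATP6 by 7 bases. Reads in that stretch or across either border could not be told apart. The level of so short a gene is therefore uncertain beside those of longer genes. The 16S rRNA gene (DR311_mgr01) reached 8238 FPKM and ranked 3rd of all genes, against 399 FPKM for the 12S rRNA gene (DR311_mgr02). Because RNA was selected by its poly-A tail, here and below counts of rRNA and tRNA genes need not follow the amounts of those RNAs.

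Nuclear subunits were ordered by complex. Median FPKM was 233 for the 11 subunits of complex V, 227 for the 8 of complex IV, 207 for the 5 of complex III, 55.5 for the 35 of complex I and 31.2 for the 5 of complex II. The highest gene of each was ATP synthase beta, the catalytic subunit (LOC121426330, 579 FPKM), cytochrome c oxidase 7A2 (LOC121418824, 460), cytochrome b-c1 subunit 6, the hinge protein (LOC121423984, 247), complex I iron-sulfur protein 5 (LOC121430897, 179) and the iron-sulfur subunit of succinate dehydrogenase (LOC121427451, 47.6). Of the cytochrome c-like genes, LOC121426055 had 110 FPKM and LOC121426898 4.44.

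The share of each library taken by the nuclear genes was almost constant, and that of the mtDNA genes was not. The 85 nuclear genes held 1.11% to 1.22% of counts in all 9 libraries. The 13 mtDNA protein-coding genes held 3.21%, 3.74% and 2.60% in the DMSO libraries of matings 1, 2 and 3. They held 4.08%, 3.74% and 3.26% with K02288, and 3.69%, 3.80% and 2.60% with axitinib. The 3 treatments overlapped, and in each of them mating 3 gave the lowest value. The 2 rRNA genes held 0.778% to 2.41%, with a mean of 2.01% in mating 1 against 0.992% and 0.907% in matings 2 and 3.

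**Figure D1:**
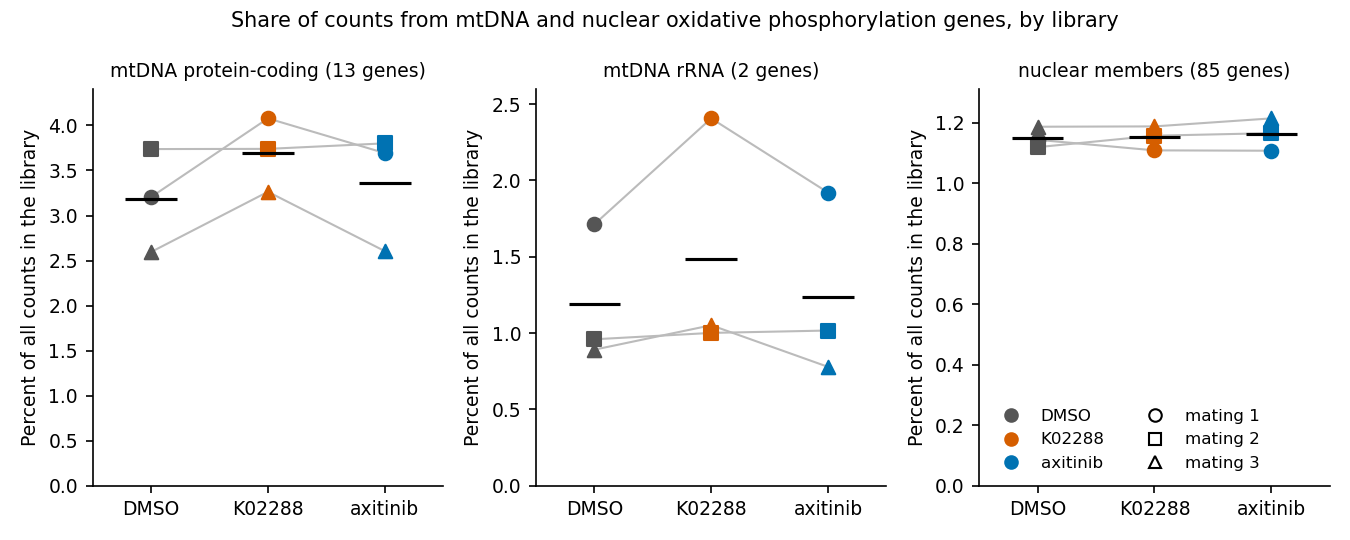
Percent of all counts in a library (vertical axis) from 13 mtDNA protein-coding genes, 2 mtDNA rRNA genes and 85 nuclear genes, by treatment. Symbols are matings, grey lines join libraries of a mating and black bars are means of 3 libraries; the nuclear share stays between 1.11% and 1.22% while the mtDNA protein-coding share runs from 2.60% to 4.08%.

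Relative to the nuclear genes, mtDNA protein-coding counts were 2.78-fold (SD 0.577, n = 3) with DMSO, 3.22-fold (SD 0.466, n = 3) with K02288 and 2.91-fold (SD 0.667, n = 3) with axitinib. The difference of K02288 from DMSO was thus smaller than the SD over matings of either group. Within matings, the K02288 ratio divided by the DMSO ratio was 1.31, 0.968 and 1.26, so the ratio was higher with K02288 in matings 1 and 3 and not in mating 2. No test was made of these sums. In whole embryos, a change in the number of cells of a type and a change in RNA per cell cannot be told apart.

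The study asked what BMP receptor inhibition changes in late skeletogenesis, and 108 of the 113 genes were tested for K02288 against DMSO (the others are tRNA genes with few counts). In the comparison without a mating term, none of the 108 reached an unadjusted p of 0.05 by edgeR's quasi-likelihood test, and none did by DESeq2, while 2.45% of all 16288 genes tested did so by edgeR. The median log2 fold change was 0.25 for the 13 mtDNA protein-coding genes, 0.08 for the 85 nuclear genes and 0.01 for all genes. A positive value was given by 12 of the 13 mtDNA genes, by 63 of the 85 nuclear genes and by 8344 of all 16288 genes. Scaled by library size alone, these counts were 12, 51 and 7023, and the nuclear median was 0.028. COX1 and COX3 were the 2 mtDNA genes whose 3 K02288 libraries all lay above the 3 DMSO libraries, and LOC121426517, an accessory subunit of complex I (1 beta subcomplex subunit 3), was the only nuclear one; 3.28% of all genes did so.

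COX3 had the lowest p of the 108. Its normalized counts were 35355, 35245 and 29674 in DMSO libraries 1, 2 and 3 and 47540, 37292 and 39844 with K02288. The groups did not overlap, although the lowest K02288 library exceeded the highest DMSO library by little, and the log2 fold change was 0.31 ± 0.14 (SE; adjusted p = 1.00 by edgeR, as for every gene of the set in this fit). COX1 had 138283, 157110 and 121028 counts with DMSO and 168830, 164280 and 158365 with K02288. Its K02288 libraries were close together and all above the control range, the lowest of them by little. The log2 fold change was 0.24 ± 0.13.

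CYTB had 35014, 44910 and 31001 normalized counts with DMSO and 47423, 47670 and 39953 with K02288, a log2 difference of 0.28 ± 0.16. ATP6 had 31948, 36160 and 23041 with DMSO and 49136, 38577 and 29718 with K02288, a difference of 0.36 ± 0.23. In both genes the treatments overlapped because the K02288 library of mating 3 lay within the DMSO range, while within each mating the K02288 library was the higher. COX2 showed the same order within matings, at 28075, 39645 and 21967 with DMSO and 44036, 40860 and 24623 with K02288.

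The complex I genes of the mtDNA, except ND2, were lowest in mating 3 under all treatments. ND1 had 16471, 19056 and 9177 normalized counts with DMSO and 22238, 19629 and 10567 with K02288. ND5, the largest of the proton-pumping subunits, had 21896, 20736 and 11279 with DMSO and 25635, 22215 and 16367 with K02288. ND4L had 3382, 6097 and 3357 with DMSO and 5765, 7376 and 3685 with K02288. For all 3 genes the spread between matings was wider than the step between treatments, and the treatments overlapped. ND4 (10432 to 17450 with DMSO, 13189 to 18976 with K02288), ND2 (5838 to 14155 and 6339 to 17077), ND6 (2199 to 4028 and 2312 to 4569) and ND3 (2623 to 3988 and 2417 to 4377) overlapped too.

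ATP8 went against the others, with 969, 125 and 105 normalized counts with DMSO and 161, 117 and 585 with K02288. One library per treatment stood far above its group, from mating 1 with DMSO and from mating 3 with K02288, and the log2 fold change of -0.47 ± 0.94 was smaller than its error. Without DMSO replicate 1 it was 1.32 on the same scale.

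**Figure D2:**
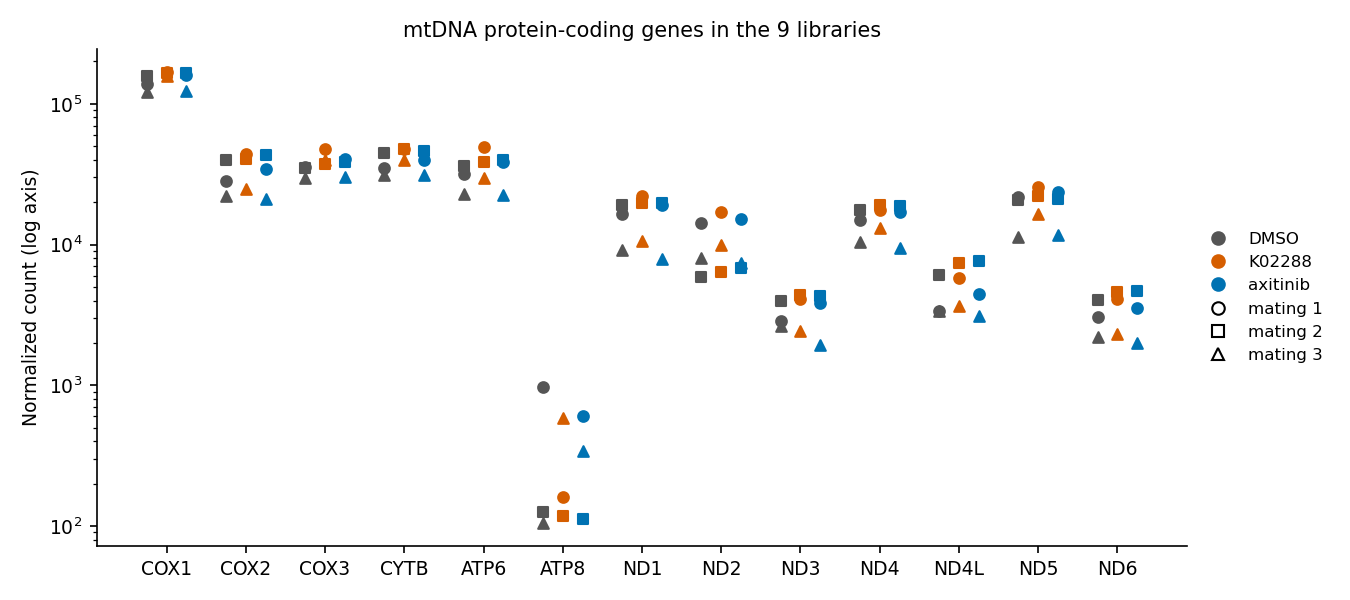
Normalized counts (log axis) of the 13 mtDNA protein-coding genes in the 9 libraries, with treatments by colour and matings by symbol. COX1 lies between 121028 and 168830 counts; for most genes the triangles of mating 3 are lowest in every treatment, and ATP8 scatters from 105 to 969.

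Because same-numbered libraries share a mating, a fit with mating as a block was made as well, and it changed the result. With the block, 11 of the 13 mtDNA protein-coding genes (84.6%) and both rRNA genes were called higher with K02288 at an unadjusted p of 0.05, where 7.26% of all genes were called higher. ND3 (0.17 ± 0.11) and ATP8 (-0.15 ± 0.58) were the exceptions, and none of the tested tRNA genes was called. The sizes were modest: 0.39 ± 0.11 on the log2 scale for ND4L (adjusted p = 0.0752 by edgeR), 0.36 for ATP6 (adjusted p = 0.0852), 0.31 for COX3 (adjusted p = 0.121) and 0.31 for the 16S rRNA (adjusted p = 0.142). None of the 113 genes reached an adjusted p of 0.05, whereas 2.88% of all genes did. The mtDNA genes lie close together on the same molecule and moved largely together, so their calls are not independent of each other.

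The difference was carried by matings 1 and 3. Median log2 ratios of K02288 over DMSO for the 13 genes were 0.43, 0.09 and 0.34 in matings 1, 2 and 3, and 11 of the 13 were higher in all 3 matings, against 18.4% of all genes. The 85 nuclear genes gave medians of 0.05, 0.17 and 0.02, and so were highest in the mating where the mtDNA genes moved least. With the block, leaving out DMSO replicate 1 or K02288 replicate 1 each brought the number of mtDNA genes called down from 13 to 2. A library left out leaves its mating without a pair, which by itself can lower the number of calls. The calls over all genes in these fits were not compared. Scaled by library size alone, the block called 9 of the 13 mtDNA protein-coding genes and, of all genes, 880 higher and 1383 lower in place of 1183 and 961.

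Of the 85 nuclear genes, the block called 5 higher and 1 lower with K02288, or 5.88% and 1.18% where all genes gave 7.26% and 5.9%. The nuclear count was thus no higher than that of all genes, and no adjusted p was under 0.05. These 6 genes were singled out after their values were seen. Accessory subunits of complex I made up 4 of the 5: NDUFB2 (LOC121405922, 0.30 on the log2 scale, adjusted p = 0.162), the NDUFA8 copies LOC121409929 (0.71, adjusted p = 0.175) and LOC121409976 (0.29, adjusted p = 0.291), and NDUFA12 (LOC121411024, 0.24, adjusted p = 0.277). The 5th was cytochrome b-c1 subunit 8 (LOC121431277, 0.21, adjusted p = 0.287). LOC121409929 had 110, 119 and 11.5 normalized counts with DMSO and 285, 144 and 9.39 with K02288. It was thus lower with K02288 in mating 3, and the K02288 library of mating 1 stood far above the rest.

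NDUFB2 had 510, 621 and 448 normalized counts with DMSO and 672, 733 and 540 with K02288. The K02288 library was the higher in every mating, and the groups overlapped. The gene called lower was the main cytochrome c-like gene LOC121426055, with 3666, 4112 and 2135 counts with DMSO and 3107, 3931 and 1743 with K02288. It was lower with K02288 in every mating, by 0.20 on the log2 scale with the block (log2 fold change -0.20, adjusted p = 0.338 by edgeR), and its groups overlapped. ATP synthase beta, the most abundant nuclear subunit, had 15194, 12751 and 12983 counts with DMSO and 12748, 13410 and 14327 with K02288, a log2 difference of -0.02 ± 0.12. Its groups overlapped fully, and the direction differed between matings.

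Complex by complex, the 2 genomes can be set side by side in the fit with the block. In complex IV, COX1, COX2 and COX3 had log2 fold changes of 0.24, 0.28 and 0.31, and the 8 nuclear subunits a median of 0.04 with none called. In complex III, CYTB had 0.29, and the 5 nuclear subunits a median of 0.07 with 1 called. In complex I, the 7 mtDNA genes had a median of 0.23 with 6 called, and the 35 nuclear subunits 0.09 with 4 called higher. The 5 nuclear subunits of complex II, which has no mtDNA subunit, had a median of -0.03, and the 11 of complex V one of 0.05, with none called in either. The mtDNA genes of complex V went both ways, with a median of 0.10, ATP6 at 0.36 and called, and ATP8 at -0.15 and not called. Whether the mtDNA and nuclear subunits of a complex differed from each other was not tested.

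**Figure D3:**
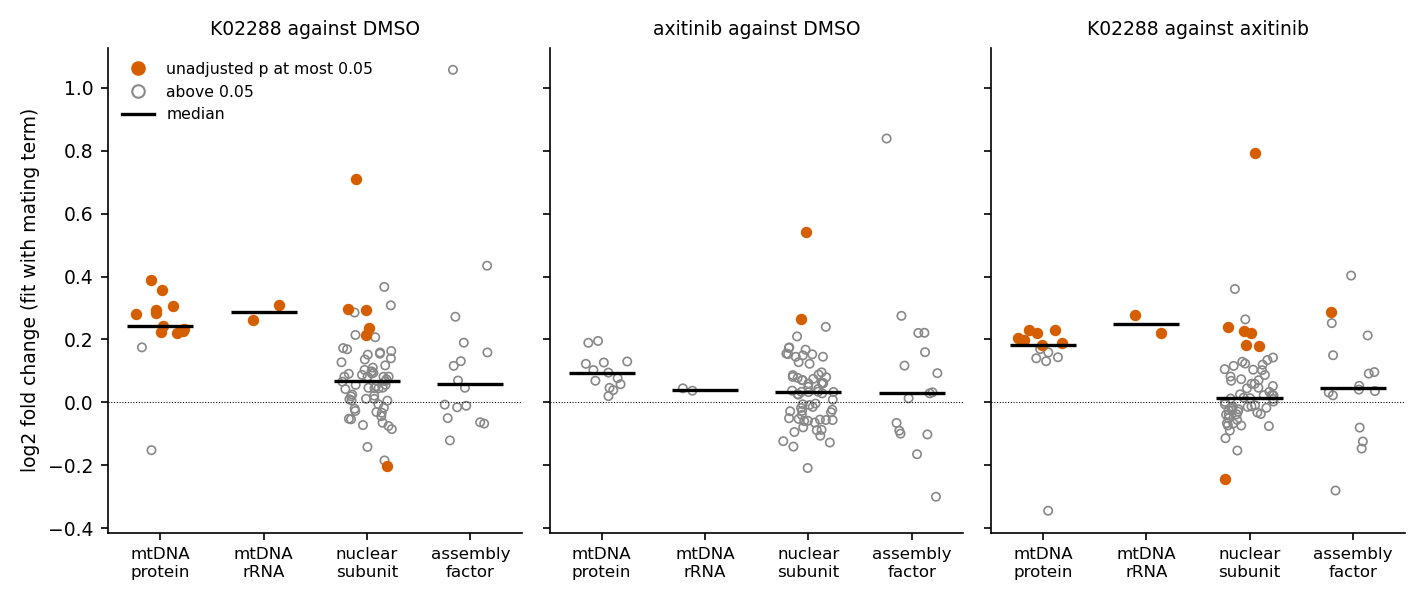
Log2 fold changes from the fit with a mating term (vertical axis) for 13 mtDNA protein-coding genes, 2 rRNA genes, 66 nuclear subunits and 16 assembly factors in 3 comparisons. Filled points have an unadjusted p of at most 0.05 and bars are medians; for K02288 against DMSO 11 of the 13 mtDNA genes are filled and all 11 lie above 0, and for axitinib against DMSO none is filled.

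Marker genes of the cell types were measured beside these results. All 19 skeletogenic genes (spicule matrix and mesenchyme-specific cell surface glycoprotein genes) had counts, with summed normalized counts of 46699 to 57363 with DMSO, 35423 to 44352 with K02288 and 24311 to 34339 with axitinib. The log2 ratio of that sum, K02288 over DMSO, was -0.39, -0.07 and -0.42 in matings 1, 2 and 3. It was lowest in the matings where the mtDNA ratio was highest, and its part in the mtDNA result was not tested. The paper lists genes of both families as lowered by K02288, axitinib or both, so the sum need not follow cell number. All 4 ciliated cell, 25 neuron, 11 muscle and 13 pigment cell markers and 62 of 63 gut markers had counts. Sums over the 9 libraries ran from 13881 to 18333 (ciliated), 12045 to 13662 (neurons) and 27663 to 36331 (muscle). Pigment cell sums were 5601 to 8640 with DMSO, 5943 to 8874 with K02288 and 8061 to 12882 with axitinib, and gut sums 23005 to 29676, 24203 to 28604 and 20027 to 22138. The axitinib libraries thus lay below all others for gut and skeletogenic markers. The K02288 over DMSO ratio was also highest in mating 2 for ciliated cell, neuron, muscle and gut sums, and not for pigment cells.

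For axitinib against DMSO, the comparison that addresses VEGF receptor inhibition, 107 of the 113 genes were tested. None reached an unadjusted p of 0.05 by edgeR without the block or by DESeq2, where 4.85% of 16035 genes did by edgeR. The median log2 fold change was 0.09 for the mtDNA protein-coding genes, 0.04 for the nuclear genes and 0.02 for all genes. Median ratios of the 13 genes by mating were 0.20, 0.12 and -0.06, so mating 3, where K02288 gave 0.34, gave a value near 0 with axitinib. COX1 had 159467, 166455 and 122673 normalized counts with axitinib, and COX3 40714, 38660 and 30322. Each was above its DMSO library in every mating, and each overlapped the DMSO range.

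With the block, none of the 22 mtDNA genes tested was called for axitinib and 2 of the 85 nuclear genes were called higher, or 2.35% where all genes gave 8.96%. One of them, the NDUFA8 copy LOC121409976, passed the adjusted threshold that 6.22% of all genes passed. It had 335, 190 and 550 normalized counts with DMSO and 389, 305 and 904 with axitinib. It was higher with axitinib in each mating, by 0.54 ± 0.13 on the log2 scale (adjusted p = 0.0175 by edgeR with the block), and the groups overlapped because matings differed more than treatments. Without the block it gave 0.57 ± 0.49. The other was NDUFA12 (LOC121411024), with 1778, 1821 and 1416 counts with DMSO and 2049, 2647 and 1464 with axitinib, a log2 difference of 0.27 with the block (adjusted p = 0.180).

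The following 3 genes did not overlap between axitinib and DMSO. The mtDNA tRNA-Asn gene (DR311_mgt06) lay at 9 to 17 normalized counts with DMSO and 19 to 28 with axitinib, and LOC121431164, annotated as the methyltransferase of ATP synthase subunit C, at 204 to 236 and 237 to 271. The assembly factor NDUFAF3 (LOC121410669), which helps to join early parts of complex I, lay lower, at 249 to 288 with DMSO and 190 to 240 with axitinib. Of all genes, 4.59% lay wholly higher and 5.59% wholly lower. Fold changes were 0.72 ± 0.48, 0.25 ± 0.17 and -0.30 ± 0.18 on the log2 scale, and none was called.

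The remaining genes of lowest p in this comparison spanned several roles. Cytochrome b-c1 subunit 6 (LOC121423984) had a log2 fold change of 0.18 ± 0.13. Below 0 were cytochrome c oxidase 6A (LOC121409301, -0.10 ± 0.13), the accessory complex I subunit NDUFA3 (LOC121423222, -0.13 ± 0.19) and the complex IV assembly protein COX16 (LOC121419360, -0.16 ± 0.26). None of these differences passed the test. For K02288, the genes below 0 with the lowest p after ATP8 were cytochrome c, tRNA-Gln (DR311_mgt05, -0.26 ± 0.58) and NDUFB11 (LOC121410707, -0.10 ± 0.21), a membrane subunit of complex I.

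In the direct comparison of K02288 with axitinib, 109 genes were tested, and none was called by edgeR without the block or by DESeq2, where 4.99% of 16197 genes were called by edgeR. A set of 3 nuclear genes had all K02288 libraries above all axitinib libraries, where 5.46% of all genes did: NDUFAF3 (LOC121410669, log2 difference 0.28), LOC121429560 (0.41), which attaches the flavin to succinate dehydrogenase, and the complex I subunit LOC121426517. Cytochrome c oxidase 6A (LOC121409301) gave 0.23 ± 0.15. Below 0 were the heme A synthesis factor COX15 (LOC121425129, -0.15 ± 0.17), tRNA-Val (DR311_mgt11, -0.54 ± 0.72) and a copy of the flavoprotein subunit of succinate dehydrogenase (LOC121419291, -0.16 ± 0.23).

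With the block, 7 of the 13 mtDNA protein-coding genes (53.8%) and both rRNA genes were called higher with K02288 than with axitinib, where 10.4% of all genes were called higher. The 16S rRNA had 264226, 103931 and 110446 normalized counts with K02288 and 205886, 104708 and 79006 with axitinib, a log2 difference of 0.28 with an adjusted p of 0.0376, which 8.16% of all genes matched by an adjusted p under 0.05. It was higher with K02288 in matings 1 and 3 and about level in mating 2. Among the protein-coding genes the 3 medians by mating were 0.22, -0.02 and 0.39. Calls of mtDNA genes are, as above, not independent of each other. Leaving out axitinib replicate 3 brought the number of mtDNA genes called from 9 to 1, and leaving out K02288 replicate 3 brought it to 2. As above, the loss of a pair by itself can lower these numbers. Log2 ratios of marker sums, K02288 over axitinib in matings 1, 2 and 3, were 0.37, 0.19 and 0.50 for gut. They were 0.02, 0.005 and 0.05 for neurons and 0.26, 0.11 and 0.25 for muscle. Skeletogenic markers gave 0.35, 0.52 and 0.54, ciliated cell markers -0.14, -0.21 and -0.36, and pigment cell markers -0.82, 0.14 and -0.47. Gut and neuron markers had the same order of matings as the mtDNA medians, though the neuron ratios were at most 0.05. Muscle markers were also lowest in mating 2, and the remaining lists were not. A shared order of 3 matings can arise by chance. The part of any of them in the mtDNA result was not tested. The nuclear genes gave 7 higher and 1 lower, or 8.24% and 1.18% where all genes gave 10.4% and 9.19%, and scaled by library size alone 3 in all.

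Mating was the stronger source of variation for both genomes. Levels differed between the 3 matings at an adjusted p under 0.05 (edgeR, all 9 libraries, with treatment as a covariate) for 23 of 27 mtDNA genes tested (85.2%), including all 13 protein-coding and both rRNA genes, and for 59 of 85 nuclear genes (69.4%), beside 52.7% of all 16866 genes. The median total count was 145406 for the mtDNA protein-coding genes, 7932 for the nuclear genes and 1309 for all genes tested, and more counts let smaller differences pass. The median fold from the lowest to the highest mating was 1.82 for the mtDNA protein-coding genes, 1.44 for the nuclear genes and 1.48 for all genes.

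The mtDNA protein-coding genes moved largely together, and the nuclear genes did not. Mating 3 was lowest for 11 of the 13, and the highest mating was 2 for 8 of them and 1 for 5. Of the 59 nuclear genes called, 20 were highest in mating 1, 21 in mating 2 and 18 in mating 3. By complex, nuclear subunits were called for 31 of 35 in complex I, 7 of 8 in complex IV, 3 of 5 in complexes II and III each and 4 of 11 in complex V, and 9 of 16 assembly factors were called. ATP synthase f (LOC121422889), a membrane subunit, had 2384, 867 and 1747 normalized counts in the DMSO libraries of matings 1, 2 and 3, and kept that order with both inhibitors.

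The matings also differed in the balance of transcripts within the mtDNA. ND2 stood at 9.54% to 10.2% of the COX1 count in mating 1, 3.72% to 4.06% in mating 2 and 6.02% to 6.58% in mating 3. The 16S rRNA stood at 129% to 157% of COX1 in mating 1 and at 59.9% to 75.7% in the other matings. The 12S rRNA stood at 3.79% to 4.19% in mating 2 and at 1.58% to 1.96% in the others. For each of the 3 genes, the ranges of the mating that stood apart did not overlap those of the others under any treatment. After poly-A selection, the rRNA values need not follow the rRNA content of the matings.

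These 3 genes were among the 5 with the lowest p for mating, at adjusted p of 1.6e-08 (ND2), 2.6e-08 (16S rRNA) and 6.5e-09 (12S rRNA). ND2 (mtDNA positions 3235 to 4293) is followed by the 16S rRNA gene (4294 to 5826) and COX1 (5827 to 7380) with 0 bases between them, in the coordinates of the deposited table, which equal those of RefSeq assembly Lvar_3.0. ND2 and the 16S rRNA shared the high value in mating 1, and COX1, adjacent to the latter, differed only 1.21-fold between matings. ND1 (2189 to 3160), on the other side of ND2, was level in matings 1 and 2 and lowest in mating 3. Reads that span a border could not be told apart between the genes.

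**Figure D4:**
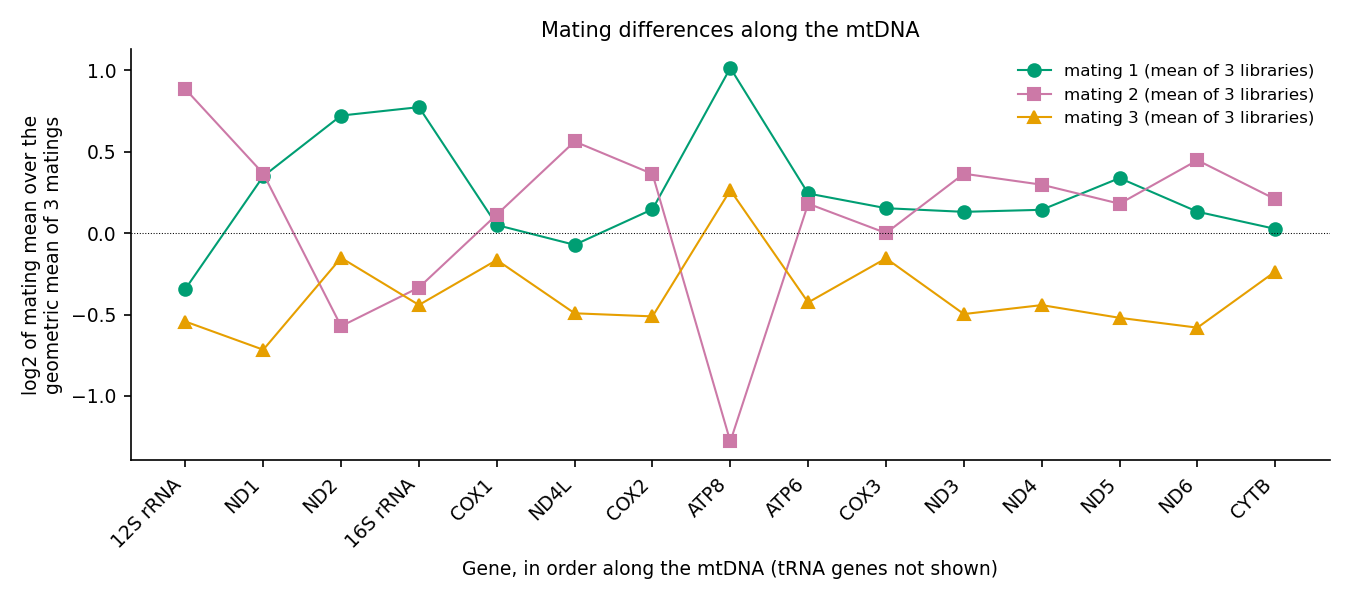
Log2 of each mating's mean normalized count over the geometric mean of the 3 matings (vertical axis) for 15 mtDNA genes in their order along the molecule. ND2 and the 16S rRNA are high in mating 1 and the 12S rRNA in mating 2, whereas COX1 stays close to 0, ATP8 is the widest, and mating 3 is lowest for 11 of the 13 protein-coding genes.

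Among the tRNA genes, counts were few and matings differed as well. The tRNA-His gene (DR311_mgt21) had 24, 17 and 22 normalized counts in the DMSO, K02288 and axitinib libraries of mating 3 and at most 2 in any other library. The neighbouring tRNA-Ser gene (DR311_mgt22) had 17, 32 and 22 in mating 3 and at most 4 elsewhere. Both lie between ND4 and ND5, which were not higher in mating 3, and the tRNA-His annotation overlaps ND4 by 10 bases.

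The lowest p for mating of all members belonged to a pair of nuclear genes with the same description, NDUFA2, an accessory subunit of complex I. LOC121410946 (chromosome 1, 30379716 to 30386600) had 892, 50 and 40 normalized counts in the DMSO libraries of matings 1, 2 and 3, and 953, 71 and 62 with K02288. LOC121411214 (chromosome 1, 31183641 to 31195633) ran the other way, at 109, 593 and 1049 with DMSO and 120, 729 and 1194 with K02288. No mating 1 library overlapped a library of another mating in either gene, and adjusted p for mating were 3.0e-13 and 3.3e-12.

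Summed over the pair, matings 1, 2 and 3 had means of 1041, 756 and 1167 counts, so the sum differed by far less than either copy. LOC121410946 made up 89.1% of the sum in mating 1 and 8.59% and 4.31% in matings 2 and 3. The NDUFA8 pair on chromosome 3 behaved alike in part. LOC121409929 had 157, 143 and 9.20 counts on average in matings 1, 2 and 3, its partner LOC121409976 had 360, 260 and 702, and the sum had 517, 403 and 711.

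In all, 12 descriptions were held by 2 nuclear genes each, and in each case both lay on the same chromosome. The fold from the lowest to the highest mating was 1.13 to 2.11 for sums and 1.32 to 18.5 for the more variable copy; the fold of a sum cannot exceed that of its more variable copy, so the order of these values is no result. The flavoprotein subunit of succinate dehydrogenase had 673, 1020 and 573 counts in LOC121417972 and 779, 700 and 1055 in LOC121419291. For ATP synthase alpha, LOC121415818 had 4962, 7084 and 7982 counts, and LOC121415695 differed 1.02-fold. Mating differences were called for 19 of the 24 copies and 8 of the 12 sums, and with copies summed 48 of 73 nuclear entries (65.8%) were called. Reads may be divided between near-identical copies by the counting, so the values of single copies are uncertain, those of the NDUFA8 copy called for axitinib included.

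**Figure D5:**
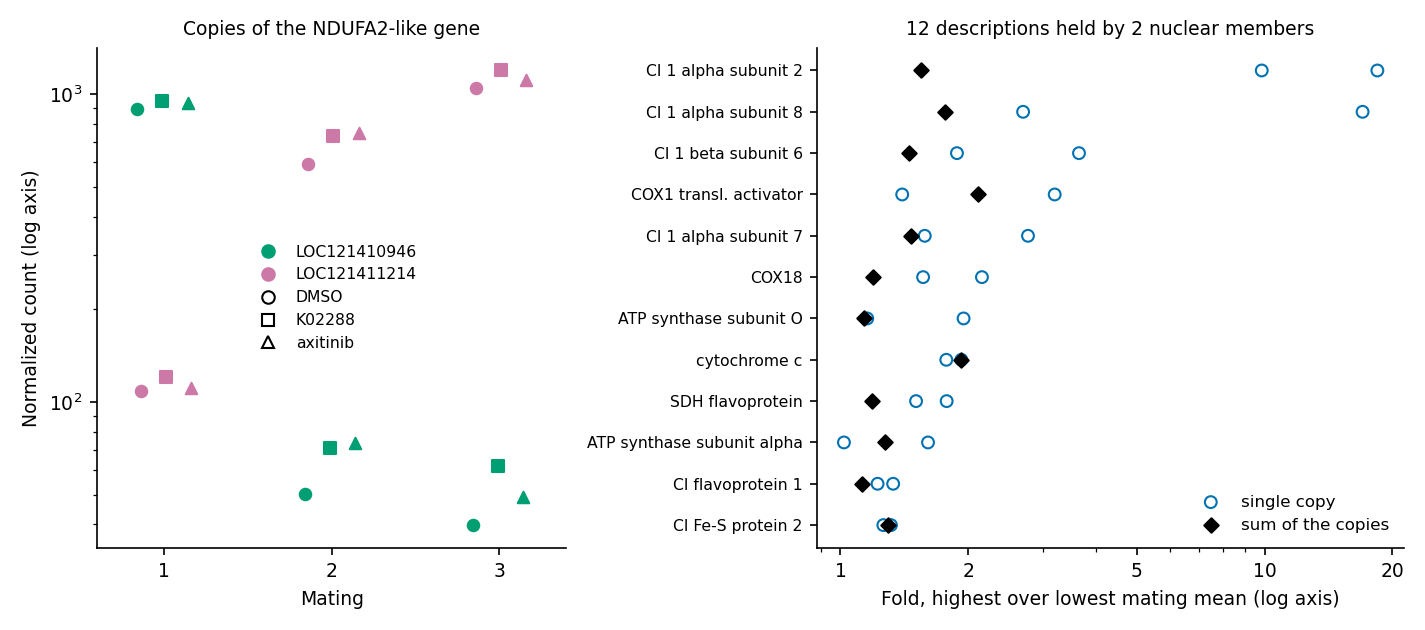
Left, normalized counts (log axis) of the NDUFA2-like copies in each library by mating, with treatments by symbol. Right, fold from the lowest to the highest mating mean (log axis) for single copies (circles) and for their sum (diamonds) in 12 descriptions, abbreviated with CI for complex I; single copies reach 18.5-fold and sums 2.11-fold.

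Other mitochondrial and metabolic genes were counted for comparison, from lists defined by annotation. The lists hold the machinery that would make and import these proteins: 87 mitochondrial ribosomal proteins, 17 import proteins (16 tested) and 16 genes of mtDNA replication and expression. For K02288 none of the 3 lists had a gene called without the block, and with it 1, 0 and 0 were called, against 13.2% of all genes. For axitinib the counts were 1, 0 and 0 without the block and 5, 0 and 2 with it, against 17.8%. Medians for K02288 without the block were 0.08, 0.06 and 0.05. The gene of lowest p among them was mitochondrial ribosomal protein S18b (LOC121428848), at 183, 218 and 182 normalized counts with DMSO and 270, 297 and 281 with axitinib, a difference of 0.54 ± 0.17 on the log2 scale (adjusted p = 0.714; with the block adjusted p = 0.0267 by edgeR).

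Of 28 genes of the tricarboxylic acid cycle and malate metabolism, none was called for K02288 without the block and 1 for axitinib, cytoplasmic malate dehydrogenase (LOC121419249, 0.36 ± 0.13, adjusted p = 0.882; with the block adjusted p = 0.0330). With the block 1 was called higher and 1 lower for K02288, where all genes gave 7.26% and 5.9%. For axitinib 3 were called higher and 1 lower, where all genes gave 8.96% and 8.87%. Of 19 further respiratory genes, none for K02288 and 1 for axitinib were called without the block, where all genes gave 2.45% and 4.85%. With the block 1 and 2 were called, where all genes gave 13.2% and 17.8%. The one for axitinib without the block was the somatic cytochrome c gene LOC121426863, which the annotation rule did not take as a member. It had 115, 158 and 117 counts with DMSO and 182, 282 and 168 with axitinib, higher in every mating (0.69 ± 0.27, adjusted p = 0.913; with the block adjusted p = 0.0149).

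Among 23 glycolysis genes, which yield ATP without oxygen, 1 was called higher and 1 lower for axitinib without the block, and 6 and 2 with it, of 21 tested, where 8.96% of all genes were called higher and 8.87% lower with the block. For K02288 none was called without the block, and 1 higher and 5 lower with it, of 22 tested, where all genes gave 7.26% and 5.9%. L-lactate dehydrogenase A (LOC121406038), which turns pyruvate into lactate, had 778, 762 and 659 normalized counts with DMSO, 1195, 927 and 780 with K02288 and 1673, 1308 and 1102 with axitinib. All axitinib libraries lay above all DMSO libraries, by 0.89 ± 0.18 on the log2 scale (adjusted p = 0.263 by edgeR, and with the block 0.88 and adjusted p = 7.65e-05). The K02288 libraries also all lay above the DMSO libraries, the lowest of them by little. Their log2 fold change was 0.40 ± 0.19, and 0.38 with the block (adjusted p = 0.0653 by edgeR). A hexokinase-2-like gene (LOC121425403), for the first step of glycolysis, had 3734, 4156 and 3548 counts with DMSO and 2205, 2605 and 2573 with axitinib, without overlap (-0.63 ± 0.13, adjusted p = 0.278; with the block adjusted p = 0.000603). Mating differences were called for 44 of 87 ribosomal, 6 of 16 import, 18 of 28 tricarboxylic acid cycle, 5 of 16 mtDNA expression, 14 of 22 glycolysis and 11 of 19 other respiratory genes, beside 52.7% of all genes.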

How the data were processed

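Gene counts, and FPKM values computed from them, were used as the authors deposited them, in separate tables. Deposited counts are whole numbers per gene without normalization, and deposited FPKM are scaled by gene length and library. The submitters' processing notes name CASAVA 1.8, HISAT2, DESeq and DESeq2; the counting tool and its strand setting are not given in the sources used here. By the study's methods, reads were mapped to version 3.0 of the L. variegatus genome with HISAT2. Coordinates and names of all 26814 genes in the count table equal those of RefSeq Lvar_3.0.

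Counts were filtered with filterByExpr, scaled by TMM and tested with edgeR 4.0.16 (quasi-likelihood, two-sided) in R 4.3.3 on the 6 libraries of each pair of treatments, without a mating term, as the study's methods state none. A gene was called at an unadjusted p of at most 0.05, the study's threshold; Benjamini-Hochberg adjusted p are over all genes tested. Mating differences used an F test of both mating coefficients over 9 libraries with treatment as covariate, called at an adjusted p under 0.05. Normalized counts are counts divided by effective library size, relative to its mean. Errors of fold changes are SE. Scripts were tested on simulated counts.

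By the study's methods, each of 3 replicate sets came from its own mating and held all treatments; the replicate number of the labels was taken as the set. Deviations from treatment means correlated at 0.706 to 0.750 over the 9 pairs of libraries of the same mating. Over the 18 pairs differing in mating and treatment they correlated at -0.420 to -0.327. Subtracting means of 3 libraries itself makes the latter negative, so they are no separate evidence. Because of the correlation within matings, the fit with mating as a block is given beside results whose call it changes. Without the block, p-values for treatments measure differences against the spread between libraries of a treatment, which came from 3 matings. With the block, and for mating differences, the measure is the residual spread after the treatment and mating terms.

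Alternatives were DESeq2 1.42.0, limma 3.58.1 on log2(FPKM + 1), library size without TMM, other count filters, the mating block, mtDNA genes left out and each library left out in turn. Block combined with scaling, mtDNA left out or libraries left out, and summed copies, were chosen after seeing the data. Members and lists were chosen with earlier results of these data known. Named were all mtDNA protein-coding genes, members with an adjusted p under 0.05, up to 4 higher and 4 lower of lowest p per comparison, the highest nuclear gene per complex, the 5 of lowest p for mating, those nearest 30 counts and up to 2 per other list; others are named as examples, chosen after their values were seen. The count table holds no sequences and none are shown.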

Additional observations from a re-analysis of the deposited data

Results flagged for a closer look

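The 16S rRNA gene of the mtDNA (DR311_mgr01) differed between the inhibitors, K02288 against axitinib, by 0.28 on the log2 scale in the fit with the mating term (adjusted p = 0.0376 by edgeR), which drew attention because the effects of the 2 inhibitors under the same DMSO controls differ by a direct test. Without the mating term the difference was 0.30 ± 0.46, and leaving out single libraries moved that value between -0.28 and 0.80. By mating the 16S count with K02288 exceeded that with axitinib in matings 1 and 3 and was 103931 against 104708 normalized counts in mating 2. RNA was selected by its poly-A tail, so this count need not follow the amount of the 16S rRNA.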

How the results depend on the processing

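Without the mating term no setting that kept all libraries called a member, except limma on log2(FPKM + 1), which called 1 mtDNA gene for axitinib. The replicate block called 13 mtDNA and 6 nuclear genes for K02288, 0 and 2 for axitinib, and 9 and 8 for K02288 against axitinib; with library size without TMM besides, the nuclear counts were 3 for K02288 and 3 for K02288 against axitinib. The counts for mating stayed within 1.5 times under all alternatives run. Without TMM the nuclear median for K02288 against axitinib was -0.0049 in place of 0.03.

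Leaving out single libraries gave, without the block, 0 to 3 mtDNA and 0 to 1 nuclear genes for K02288, 0 to 1 and 0 to 1 for axitinib, and 0 and 0 for the direct comparison; the median of the mtDNA genes ran from 0.085 to 0.46, -0.046 to 0.37 and -0.11 to 0.32, and the nuclear median of the direct comparison from 0.01 to 0.05. With the block the counts ran from 2 to 13 and 3 to 10 for K02288, 0 to 4 and 3 to 5 for axitinib, and 1 to 15 and 2 to 8 for the direct comparison.

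Signs turned for single genes under the same step. For K02288 the range was -0.28 to 0.048 for LOC121410707, -0.45 to 0.087 for LOC121426055, -0.78 to 0.13 for DR311_mgt05, -0.023 to 0.49 for ND1, -0.20 to 0.68 for ND2 and -1.53 to 1.32 for ATP8 (-1.51 to 1.28 with the block). For axitinib it was -0.046 to 1.03 for LOC121409976 and, with the block, -0.17 to 0.024 for LOC121409301. For K02288 against axitinib it was -0.34 to 0.040 for LOC121419291, -0.28 to 0.80 for DR311_mgr01 and, with the block, -0.24 to 0.0079 for LOC121425129 and -0.71 to 0.11 for DR311_mgt11. Of 744 values of named genes under an alternative, 641 kept direction and side of the threshold, 34 passed it newly, 49 lost it and 20 changed sign, 18 of them called in neither; the causes were not tested.

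With 3 libraries per treatment and matings this far apart, the fits without the block can miss changes of this size. Intervals of low counts are wide: a count of 0 in a library allows up to 3.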
